A study of Mus musculus with 17 samples.

Results

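The 10 genes described here code for proteins that move water, chloride and bicarbonate across the cells of the bile duct: the water channels Aqp1, Aqp5, Aqp8 and Aqp9, the chloride channels Cftr and Ano1, the bicarbonate and borate transporters Slc4a2, Slc4a4 and Slc4a11, and the secretin receptor Sctr. They were taken as a list of names, and every probe that carries one of these names, current or older, in the array files was used. That gave 17 probes for 10 of 10 genes among 39294 probes, and all 17 passed the filter on dim probes. After the filter and the choice of 1 probe per gene, 25975 genes were tested in all.

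Cholangiocytes, the cells that line the bile ducts, thin and alkalinise the bile that hepatocytes secrete. In the textbook account secretin binds its receptor on the duct cell, cAMP opens the chloride channel Cftr, chloride leaves the cell and is exchanged for bicarbonate by Slc4a2 at the bile side, while Slc4a4 brings in bicarbonate with sodium. Ano1 is a second exit for chloride that calcium opens, and water follows the salt through aquaporins. Hepatocytes carry aquaporins of their own, Aqp8 and Aqp9, the latter also a route for glycerol and urea.

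The series asked how mature cells made in culture compare with those taken from the liver. Its 17 single-colour arrays cover 5 groups, all from Foxl1-CRE; RosaYFP mice aged 6 to 10 weeks, in which Cre under Foxl1 control switches on a yellow reporter that stays on in the cell and its progeny. The groups are undifferentiated adult hepatic progenitor cells (n = 4), progenitors taken toward hepatocytes in vitro (4 arrays, called the hepatocyte condition), progenitors taken toward cholangiocytes in vitro (3 arrays, labelled Diff_Cholanglocyte and called the cholangiocyte condition), hepatocytes from the liver (4 arrays) and cholangiocytes from the liver (2 arrays, labelled Primary_Cholangocyte). The sources used here do not give the medium, the days in culture, the sort markers, any liver injury or whether RNA of several mice was pooled, nor whether replicates were separate animals or cultures, so each p-value reflects just the spread among these samples, which may be technical.

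A level is given as log2 of the ratio between a probe's intensity and its own array's 75th percentile, so 0 is the brightness of the probe at that percentile, and a step of 1 is a doubling. Values are means ± SD, differences are given first group minus second with ± the standard error from limma, fitted to the 17 arrays together, and passing means a p below 0.05 after Benjamini-Hochberg adjustment across the 25975 genes. Levels of different probes cannot be set against each other. The RNA was bulk RNA, in which fewer cells of a type and less RNA per cell cannot be told apart. The 75th percentile lay between 547 and 2867 intensity units, and 23814 to 29150 probes of an array exceeded background clearly. Arrays of 1 group correlated at r from 0.947 to 0.983 across the 25975 genes tested. The mean log2 of that percentile in primary hepatocytes differed by -1.60 from undifferentiated cells and by -1.82 from primary cholangiocytes, and scaling removes these shifts, so unscaled differences are given beside several results.

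The labels were checked against markers. Summed levels are in multiples of the 75th percentile. The sum of 8 cholangiocyte markers was 1.45 to 2.42 in primary hepatocytes and 184 to 261 in primary cholangiocytes. This sum was 107 to 188 in undifferentiated cells, 91.9 to 122 in the hepatocyte condition and 96.4 to 168 in the cholangiocyte condition. Epcam, a surface protein of duct cells, was at 2.63 in primary cholangiocytes and at -6.63 in the cholangiocyte condition, where 2 of 3 arrays had it above background. Sox9 and Spp1, on the same list, went the other way. They were at -2.10 and -0.12 in primary cholangiocytes and at 0.17 and 4.14 in the cholangiocyte condition. The sum of 8 hepatocyte markers was 2833 to 4189 in primary hepatocytes and 7.64 to 473 in the hepatocyte condition. In undifferentiated cells it was 0.126 to 103, a range that holds the hepatocyte-condition arrays at 33.6 and 7.64. Foxl1 was above background on every array of the 3 cultured groups and on none of the primary cells.

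The 10 genes separated the primary cell types in opposite directions. Between primary hepatocytes and primary cholangiocytes, 4 members were higher and 4 lower; of all genes 28% were higher and 21.6% lower (49.6% in all). The hepatocyte condition against primary hepatocytes gave 3 higher and 5 lower members, with 26% of all genes higher and 33.7% lower (59.7%). The cholangiocyte condition against primary cholangiocytes gave 0 higher and 2 lower members, Aqp5 and Slc4a4, with 11.9% of all genes higher and 7.64% lower (19.6%). Beside such backgrounds the counts say little about the members, and the sizes carry the description.

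In culture few members moved. The hepatocyte condition differed from undifferentiated cells in 1 member, which was lower, Slc4a11 (of all genes 7.62% were higher and 7.7% lower, 15.3% in all). Aqp1 was higher by 1.98 ± 0.86 without passing in limma (adjusted p = 0.149). It passed in 2 of 20 alternatives, among them the authors' deposited table. No member passed between the cholangiocyte condition and undifferentiated cells in limma at adjusted p, where 1.38% of all genes passed (0.785% higher, 0.597% lower); 4 members had an unadjusted p under 0.05, and 0 passed in the authors' deposited table. Between the 2 conditions 1 member was higher, Slc4a4, and 1 lower, Slc4a11 (6.97% and 8.41% of all genes, 15.4% together). Aqp5, higher in the hepatocyte condition (1.35 ± 0.71, adjusted p = 0.247), passed in 2 of 19 alternatives, among them the authors' deposited table. Slc4a2, lower in the hepatocyte condition (-0.60 ± 0.22, adjusted p = 0.0807), passed in 1 of 19. Undifferentiated cells served as the control of several comparisons, which therefore share those 4 arrays. Primary hepatocytes against undifferentiated cells gave 5 higher and 3 lower members (37.6% and 26.6% of all genes, 64.2% together), and primary cholangiocytes against undifferentiated cells gave 2 higher and 0 lower (8.51% and 10.6% of all genes, 19.1% together).

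**Figure D1:**
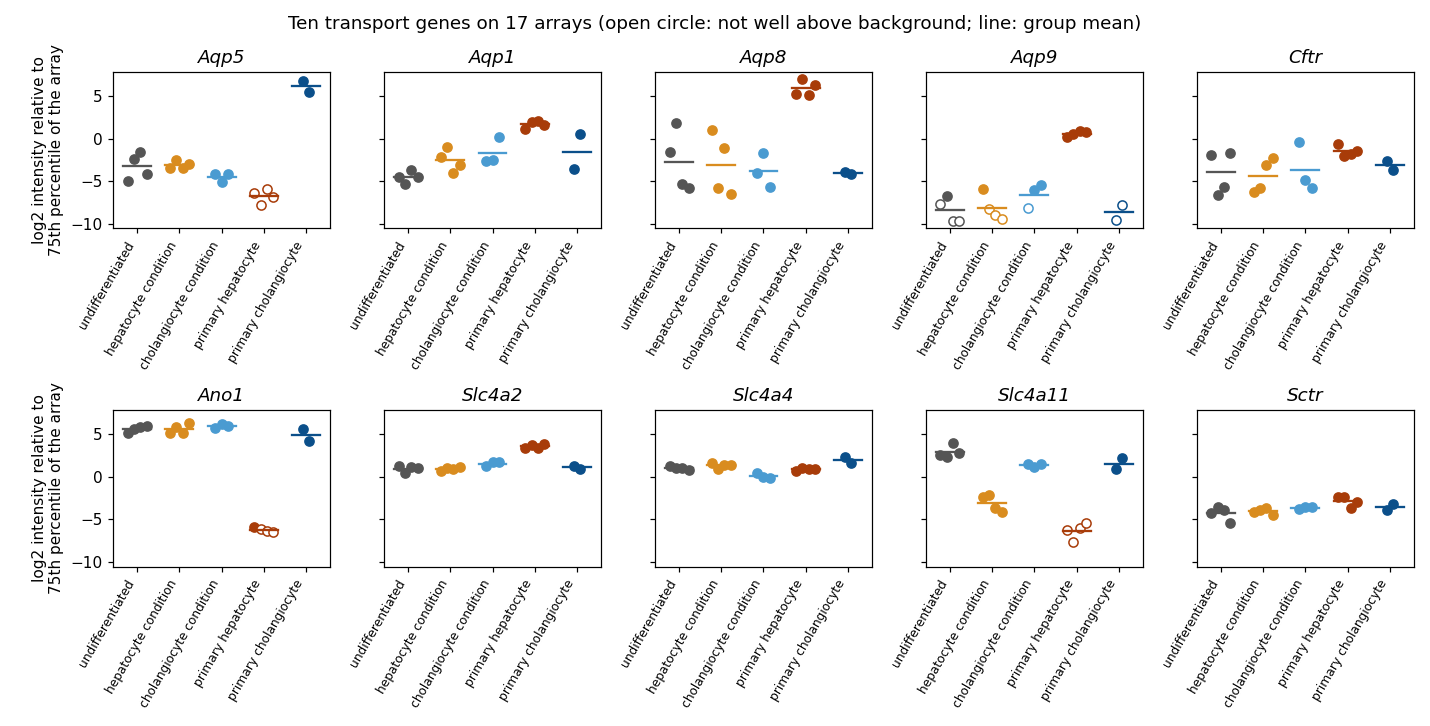
Level of each of the 10 genes on each of the 17 arrays, as log2 intensity over the array's 75th percentile, by group. Filled points are well above background, open points are not, and lines are group means. Aqp5 is above 5 only on the 2 primary cholangiocyte arrays, Ano1 is low only in primary hepatocytes, and Slc4a11 is low in primary hepatocytes and intermediate in the hepatocyte condition.

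Aqp5, a water channel of secretory glands, had the widest gap between the primary cholangiocytes and every other group. It read 6.84 and 5.50 on the 2 primary cholangiocyte arrays, -4.20, -5.04 and -4.11 in the cholangiocyte condition, and -4.97, -2.35, -1.52 and -4.20 in undifferentiated cells. In the hepatocyte condition it read -3.47, -2.53, -3.41 and -2.97, and in primary hepatocytes -6.40, -7.85, -5.86 and -6.89, none of these last 4 above background. Both primary cholangiocyte arrays lay above all 15 others, and undifferentiated cells overlapped with either condition while the conditions did not overlap with each other.

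The cholangiocyte condition was lower than primary cholangiocytes in Aqp5 by a difference of -10.62 ± 0.85 (adjusted p = 1.90e-06), and primary cholangiocytes were higher than undifferentiated cells by 9.43 ± 0.81 (adjusted p = 2.98e-06). Against primary hepatocytes primary cholangiocytes were at least 4558-fold higher (adjusted p = 1.38e-08). A fold written as at least is computed against a floor averaged over the arrays of the lower group. The floor of an array is its dimmest signal above background, or the gene's own reading there where that is brighter. Such a fold holds for the probe and processing used, makes no allowance for spread, and is not a bound over the alternatives. Primary hepatocytes had less Aqp5 than undifferentiated cells and the hepatocyte condition, which were at least 6.59-fold and at least 7.39-fold higher (adjusted p = 3.60e-04 and 2.79e-04). Under normexp background correction these last 2 calls were lost (adjusted p = 0.150 and 0.192). The smallest difference under any alternative was -0.60 for primary hepatocytes minus undifferentiated cells and 0.55 for the hepatocyte condition minus primary hepatocytes. The order of group means was primary cholangiocytes, hepatocyte condition, undifferentiated, cholangiocyte condition, primary hepatocytes, and the neighbours in the middle did not differ beyond their spread (adjusted p = 0.916 and 0.517), while the outer steps did.

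A second Aqp5 probe, 423 bases away in the coordinates of the array design, gave the same order at the top. It read 4.70 ± 0.90 in primary cholangiocytes and -5.27 ± 0.38 in the cholangiocyte condition (difference -9.97 ± 0.69, adjusted p = 5.52e-07 over 32302 probes). It was above background on 1 of 4 primary hepatocyte arrays, and primary hepatocytes did not pass against undifferentiated cells on it (-1.21 ± 0.53, adjusted p = 0.0608). A probe 16 bases beyond the first, listed under LOC100046616 and not a member, differed by -10.19 ± 0.74 between the cholangiocyte condition and primary cholangiocytes. The sequence of the second Aqp5 probe is shown so that the reader can see what was measured; it lies at chr15:99424655-99424714, plus strand, in the array design, whose build is not given in the sources used here.
Aqp5 A_55_P2071236: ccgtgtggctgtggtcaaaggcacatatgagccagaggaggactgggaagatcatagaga

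Aqp1, a water channel of bile duct cells and of blood vessels, was highest in primary hepatocytes. It read 1.10, 1.97, 2.07 and 1.63 in primary hepatocytes, -3.58 and 0.51 in primary cholangiocytes, and -2.68, -2.48 and 0.15 in the cholangiocyte condition. In the hepatocyte condition it read -2.11, -0.94, -3.99 and -3.09, and in undifferentiated cells -4.49, -5.33, -3.74 and -4.48. Primary hepatocytes overlapped no other group, while the 2 primary cholangiocyte arrays lay far apart.

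Primary hepatocytes were higher in Aqp1 than undifferentiated cells by 6.21 ± 0.86 (adjusted p = 2.22e-05), and the hepatocyte condition was lower than primary hepatocytes by a difference of -4.22 ± 0.86 (adjusted p = 7.56e-04). Against primary cholangiocytes the difference of 3.23 ± 1.05 (adjusted p = 0.0203) rested on the low primary cholangiocyte array, replicate 3: without it the difference was 1.18 (adjusted p = 0.415). With the slide as a block it was 2.70 (adjusted p = 0.0731), with array weights 3.21 (0.0543) and with the compared groups alone 3.23 (0.0550), none below the threshold. Before scaling it was 1.40. The cholangiocyte condition did not overlap with undifferentiated cells, but the difference of 2.84 ± 0.93 did not pass (adjusted p = 0.185). Primary cholangiocytes and undifferentiated cells differed by 2.98 ± 1.05 (adjusted p = 0.0638), which passed without that replicate (5.02, adjusted p = 0.00859).

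Endothelial cells and red blood cells also make Aqp1, and most of their measured markers were higher in primary hepatocytes than in the cultured groups. The summed level of 8 measured endothelial markers of 9 was 11 to 13.9 in primary hepatocytes and 1.18 to 3.35 in all other groups, and all 8 were above background on every primary hepatocyte array. Stab2, a scavenger receptor of the liver sinusoid, read 0.74 there, with group means of -5.83 or less elsewhere, and Cdh5, Tek and Lyve1 were above background on no array of the cultured groups. Vwf, a clotting factor of endothelial cells on the same list, went the other way between the primary types, at -4.34 in hepatocytes and -2.24 in cholangiocytes (adjusted p = 0.0407), and Pecam1 did not pass between them (0.80 ± 0.49, adjusted p = 0.191). The sum of 5 measured red cell markers of 8 was 14.4 to 20.4 in primary hepatocytes and at most 0.0916 elsewhere, led by Alas2, the first enzyme of haem synthesis. Epb42, a membrane protein of red cells, was above background on none of the primary hepatocyte arrays. The part of these cells in the Aqp1 values was not tested.

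Aqp8 and Aqp9, the aquaporins that hepatocytes are known for, marked the primary hepatocytes. Aqp8 read 5.30, 7.02, 5.12 and 6.33 there, and -3.90 and -4.11 in primary cholangiocytes. In cultured cells it spread widely. It read -1.59, 1.90, -5.32 and -5.85 in undifferentiated cells and 0.99, -5.76, -1.07 and -6.47 in the hepatocyte condition. Cholangiocyte-condition arrays read -4.09, -1.67 and -5.64. The 3 cultured groups overlapped fully, and no cultured array reached the lowest primary hepatocyte array. The hepatocyte condition was lower than primary hepatocytes by a difference of -9.02 ± 1.79 (adjusted p = 6.18e-04), and primary hepatocytes were higher than primary cholangiocytes by 9.95 ± 2.19 (adjusted p = 0.00178) and than undifferentiated cells by 8.66 ± 1.79 (adjusted p = 7.54e-04).

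The sums of hepatocyte markers varied among the cultured arrays as well. The 2 hepatocyte-condition arrays with Aqp8 near 0, replicates 1 and 3, had marker sums of 473 and 347, and the other two, replicates 2 and 4, had 33.6 and 7.64. In undifferentiated cells replicate 2, the highest cultured array in Aqp8, had 26.4, replicate 1 had 103, and replicates 3 and 4 had 10.7 and 0.126. In the cholangiocyte condition replicate 2, the highest in Aqp8, had 13.2, against 4.68 and 2.51. The part of these markers' source in the Aqp8 values was not tested. The second Aqp8 probe, 5183 bases away, differed by -8.91 ± 1.62 between the hepatocyte condition and primary hepatocytes (adjusted p = 2.98e-04).

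**Figure D2:**
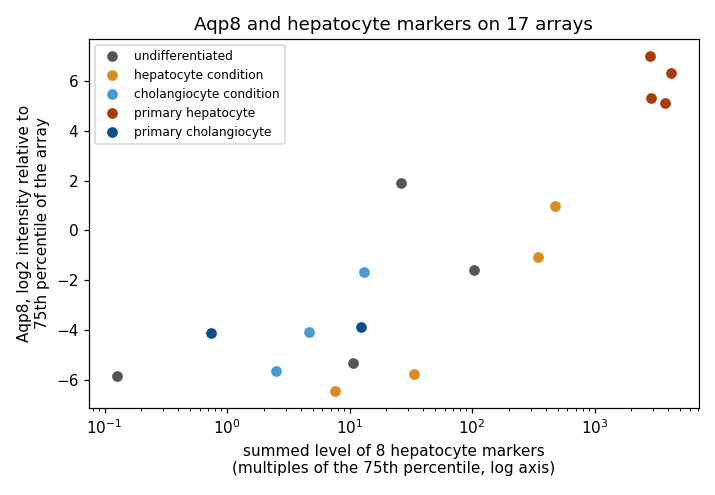
Aqp8 on each of the 17 arrays (log2 intensity relative to the 75th percentile) against the summed level of 8 hepatocyte markers on the same array (log axis), coloured by group. The 4 primary hepatocyte arrays sit at the top right, with sums of 2833 to 4189, and the cultured array highest in Aqp8 (1.90) has a sum of 26.4.

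Aqp9, which also lets glycerol and urea through, was above background on all 4 primary hepatocyte arrays, at 0.23, 0.50, 0.89 and 0.73. It was above background on 1 of 4 arrays in undifferentiated cells and in the hepatocyte condition, on 2 of 3 in the cholangiocyte condition and on neither primary cholangiocyte array. Primary hepatocytes were at least 279-fold higher than primary cholangiocytes (adjusted p = 5.46e-06). The hepatocyte condition was lower than primary hepatocytes by a difference of -8.71 ± 0.86 (adjusted p = 9.68e-07), and primary hepatocytes were higher than undifferentiated cells by 9.02 ± 0.86 (adjusted p = 5.42e-07), both against groups with 1 of 4 arrays above background. Its group means outside primary hepatocytes ran from -8.63 to -6.57 and no neighbouring pair among them passed. The cholangiocyte condition against primary cholangiocytes did not pass (adjusted p = 0.234) except with normexp (0.0275).

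The windows of 250 bases before the transcript starts of the 2 members with the widest gap in favour of cholangiocytes between the primary types, Aqp5 and Ano1, and of the 2 hepatocyte aquaporins are printed below, since these genes moved in opposite directions between the primary cell types. They come from RefSeq (GRCm38.p6), 5' to 3' on the gene's strand: Aqp5 at chr15:99590778-99591027 (plus), Ano1 at chr7:144738574-144738823 (minus), Aqp8 at chr7:123462044-123462293 (plus) and Aqp9 at chr9:71163290-71163539 and chr9:71162634-71162883 (minus). Capitals mark letters of 7 short motifs that were searched on both strands.
Aqp5: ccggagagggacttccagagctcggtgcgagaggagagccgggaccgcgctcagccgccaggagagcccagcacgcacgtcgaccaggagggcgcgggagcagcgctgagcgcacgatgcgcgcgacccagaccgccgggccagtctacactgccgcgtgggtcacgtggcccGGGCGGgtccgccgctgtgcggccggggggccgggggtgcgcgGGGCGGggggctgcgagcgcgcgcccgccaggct
Ano1: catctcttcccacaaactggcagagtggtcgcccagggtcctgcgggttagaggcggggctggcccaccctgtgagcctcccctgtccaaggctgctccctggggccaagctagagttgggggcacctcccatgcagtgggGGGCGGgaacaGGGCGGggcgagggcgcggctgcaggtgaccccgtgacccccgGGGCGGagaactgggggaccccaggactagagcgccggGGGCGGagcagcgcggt
Aqp8: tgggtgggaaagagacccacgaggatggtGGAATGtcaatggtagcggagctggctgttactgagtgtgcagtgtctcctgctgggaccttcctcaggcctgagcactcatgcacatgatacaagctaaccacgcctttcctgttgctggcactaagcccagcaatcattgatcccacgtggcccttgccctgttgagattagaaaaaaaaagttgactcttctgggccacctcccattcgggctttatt
Aqp9, first start: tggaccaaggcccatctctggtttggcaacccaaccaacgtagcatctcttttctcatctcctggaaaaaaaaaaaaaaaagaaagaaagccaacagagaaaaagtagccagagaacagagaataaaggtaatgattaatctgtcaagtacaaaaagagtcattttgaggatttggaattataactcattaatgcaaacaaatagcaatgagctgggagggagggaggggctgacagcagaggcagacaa
Aqp9, second start: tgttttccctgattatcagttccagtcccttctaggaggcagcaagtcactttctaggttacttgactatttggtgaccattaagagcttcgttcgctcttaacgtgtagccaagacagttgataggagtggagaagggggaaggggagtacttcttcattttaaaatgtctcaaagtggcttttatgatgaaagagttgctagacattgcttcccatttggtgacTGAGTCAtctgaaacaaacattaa

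Of the 10 genes, 8 had 11 such windows in the RefSeq table. The GC box of SP and KLF factors (GGGCGG) was in 5 of the 11 windows and in 32.7% of 32851 windows of the same length; Aqp5 held 2 and Ano1 held 4. The TEAD motif (GGAATG) was in 1, that of Aqp8 (12.6% of all), and the AP-1 motif (TGANTCA) in 1, the second of Aqp9 (6.75%). The HNF1 motif (GTTAAT, 6.43% of all windows), the HNF4 site (CAAAGTCCA, 0.384%), the TATA box (TATAAA, 12.4%) and the GRHL site (AACCNGTT, 1.79%) were in 0 of the 11. GC content was 78.4% for Aqp5 and 72.0% for Ano1, against 52.4% for Aqp8 and 40.4% and 41.6% for Aqp9, with a median of 52.4% over all windows. Slc4a2, which was highest in primary hepatocytes, had 69.2% and 61.2%, above that median as well. Motif letters in a window are a description and not a binding site.

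Ano1, the calcium-gated chloride channel also called TMEM16A, was bright in every group but primary hepatocytes. It read 5.20, 5.61, 5.82 and 6.02 in undifferentiated cells and 5.17, 5.91, 5.13 and 6.40 in the hepatocyte condition. Cholangiocyte-condition arrays had 5.80, 6.21 and 5.96, and primary cholangiocytes 5.67 and 4.19. In primary hepatocytes it read -5.86, -6.07, -6.41 and -6.48, above background on 1 of the 4 arrays. No array of another group came near the primary hepatocyte range, and the cultured groups overlapped one another.

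With 1 of 4 primary hepatocyte arrays above background, the differences against that group are fitted values. The hepatocyte condition was higher in Ano1 than primary hepatocytes by 11.86 ± 0.34 (adjusted p = 3.01e-12), and primary hepatocytes were lower than primary cholangiocytes by a difference of -11.14 ± 0.42 (adjusted p = 8.22e-11). The hepatocyte condition and undifferentiated cells differed by -0.01, with a 95% interval of -0.74 to 0.72. The cholangiocyte condition and primary cholangiocytes differed by 1.06 ± 0.44 (adjusted p = 0.111), which passed without primary cholangiocyte replicate 3 (1.81, adjusted p = 0.0204). The same holds for primary cholangiocytes against undifferentiated cells, with -0.73 ± 0.42 (adjusted p = 0.258) and -1.48 without it (0.0472). Primary hepatocytes were lower than undifferentiated cells by a difference of -11.87 ± 0.34 (adjusted p = 2.43e-12).

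Cftr, the cAMP-gated chloride channel mutated in cystic fibrosis, passed in none of the 8 comparisons. It read -1.86, -6.65, -5.73 and -1.64 in undifferentiated cells and -6.31, -5.76, -3.04 and -2.31 in the hepatocyte condition. The cholangiocyte condition had -0.34, -4.87 and -5.80. Primary hepatocytes had -0.62, -2.06, -1.75 and -1.42 and primary cholangiocytes -2.60 and -3.63, all above background. All 3 cultured groups overlapped widely, with high and low arrays in each, and primary hepatocytes lay above primary cholangiocytes without overlap.

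Between primary hepatocytes and primary cholangiocytes the Cftr difference was 1.65 ± 1.66 (95% interval -1.91 to 5.21, adjusted p = 0.425), and between the hepatocyte condition and primary hepatocytes -2.89 ± 1.35 (adjusted p = 0.0794). The latter passed with normexp, array weights and the compared groups alone (adjusted p = 0.0419, 0.0433 and 0.0254), without hepatocyte-condition replicate 4 (0.0499) and in the authors' deposited table. The difference between the primary types passed with the compared groups alone (adjusted p = 0.0407) and in the authors' deposited table. Primary hepatocytes and undifferentiated cells differed by 2.50 ± 1.35 (adjusted p = 0.118), which passed with array weights (0.0448) and in the authors' deposited table and was 0.90 before scaling. Before scaling, primary hepatocytes and primary cholangiocytes differed by -0.18 in Cftr, in the other direction. Only 1 probe stands for Cftr; it ends at the stop codon, in capitals, and lies at chr6:18270974-18271033, plus strand, in the array design.
Cftr A_55_P2134022: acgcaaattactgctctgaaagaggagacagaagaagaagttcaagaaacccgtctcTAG

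Slc4a2, the chloride and bicarbonate exchanger that puts bicarbonate into bile, was highest in primary hepatocytes at 3.36, 3.78, 3.43 and 3.85. The other groups read 0.51 to 1.79 on every array, primary cholangiocytes 1.26 and 0.97. Primary hepatocytes overlapped no other group. They were higher than primary cholangiocytes by 2.49 ± 0.25 (adjusted p = 1.37e-06), and the hepatocyte condition was lower than primary hepatocytes by a difference of -2.62 ± 0.20 (adjusted p = 7.67e-08). They were higher than undifferentiated cells by 2.63 ± 0.20 (adjusted p = 5.66e-08). Before scaling these 3 differences were 0.67, -1.25 and 1.03.

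Slc4a4, the sodium bicarbonate cotransporter that loads duct cells with bicarbonate, was the member that separated the 2 conditions in the direction of the hepatocyte condition. It read 2.40 and 1.62 in primary cholangiocytes and 1.59, 0.97, 1.45 and 1.46 in the hepatocyte condition. The cholangiocyte condition had 0.52, 0.05 and -0.13. Undifferentiated cells read 1.30, 1.09, 1.09 and 0.77 and primary hepatocytes 0.75, 1.08, 0.96 and 0.88. On the brightest probe, which gave these values, the cholangiocyte condition lay below every other group without overlap.

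The cholangiocyte condition was lower in Slc4a4 than primary cholangiocytes by a difference of -1.87 ± 0.27 (adjusted p = 3.24e-04; 0.0737 when the compared groups were fitted alone). The hepatocyte condition was higher than the cholangiocyte condition by 1.23 ± 0.23 (adjusted p = 0.00249). Against undifferentiated cells the cholangiocyte condition differed by -0.92 ± 0.23 and did not pass (adjusted p = 0.0693), although it passed with array weights (0.0243). Primary cholangiocytes were higher than undifferentiated cells by 0.95 ± 0.26 (adjusted p = 0.0191), a call lost without primary cholangiocyte replicate 3 (0.56, adjusted p = 0.256), with median scaling (0.125), array weights (0.0998) and the compared groups alone (0.145). Primary hepatocytes were lower than primary cholangiocytes by a difference of -1.09 ± 0.26 (adjusted p = 0.00281), a difference of -0.70 without that replicate (adjusted p = 0.0707) and of -2.92 before scaling.

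Slc4a4 had 3 probes, of which the brighter pair share 48 bases and count as nearly the same measurement. The third, 4704 bases away, was lower in the cholangiocyte condition than in primary cholangiocytes (-1.72 ± 0.57, adjusted p = 0.0459). On it the conditions did not pass against each other (1.27, adjusted p = 0.0883), nor did primary cholangiocytes (1.41, 0.0812) or the cholangiocyte condition (-0.31, 0.834) against undifferentiated cells. Its mean in primary hepatocytes, -2.69, lay below that of the cholangiocyte condition, -2.49. On it the hepatocyte condition exceeded primary hepatocytes by 1.47 ± 0.44 (adjusted p = 0.0105), where the first probe gave 0.45 ± 0.21 (0.0779); the latter passed with median scaling (0.0377), normexp (0.0404), the mean of the probes (0.0192), without hepatocyte-condition replicate 2 (0.0347) and in the authors' deposited table, and was 1.82 before scaling.

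Slc4a11, a borate and proton transporter of the same family, known from the cornea, was the member that changed within culture. It read 2.53, 2.34, 4.04 and 2.86 in undifferentiated cells and -2.32, -2.15, -3.66 and -4.13 in the hepatocyte condition. The cholangiocyte condition had 1.48, 1.15 and 1.56. Primary cholangiocytes read 0.88 and 2.28, and primary hepatocytes -6.21, -7.64, -5.98 and -5.43, none above background. The hepatocyte condition lay between the primary hepatocytes and the 3 other groups, with no overlap on either side.

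The hepatocyte condition was lower in Slc4a11 than undifferentiated cells by a difference of -6.01 ± 0.56 (adjusted p = 1.67e-05) and than the cholangiocyte condition by -4.46 ± 0.60 (adjusted p = 2.94e-04). The 3 slides that hold arrays of both groups gave -6.67 to -4.49 and -4.81 to -3.71. Against primary hepatocytes the hepatocyte condition was at least 7.04-fold higher (adjusted p = 1.83e-04), which was lost under normexp correction (adjusted p = 0.379). The smallest difference between these 2 groups under any alternative was 0.41. Primary cholangiocytes and undifferentiated cells were at least 176-fold and at least 454-fold higher than primary hepatocytes (adjusted p = 3.76e-07 and 4.80e-09). The cholangiocyte condition and primary cholangiocytes differed by -0.18 (95% interval -1.73 to 1.36), and the cholangiocyte condition lay below undifferentiated cells on every array without passing (-1.55 ± 0.60, adjusted p = 0.291).

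**Figure D3:**
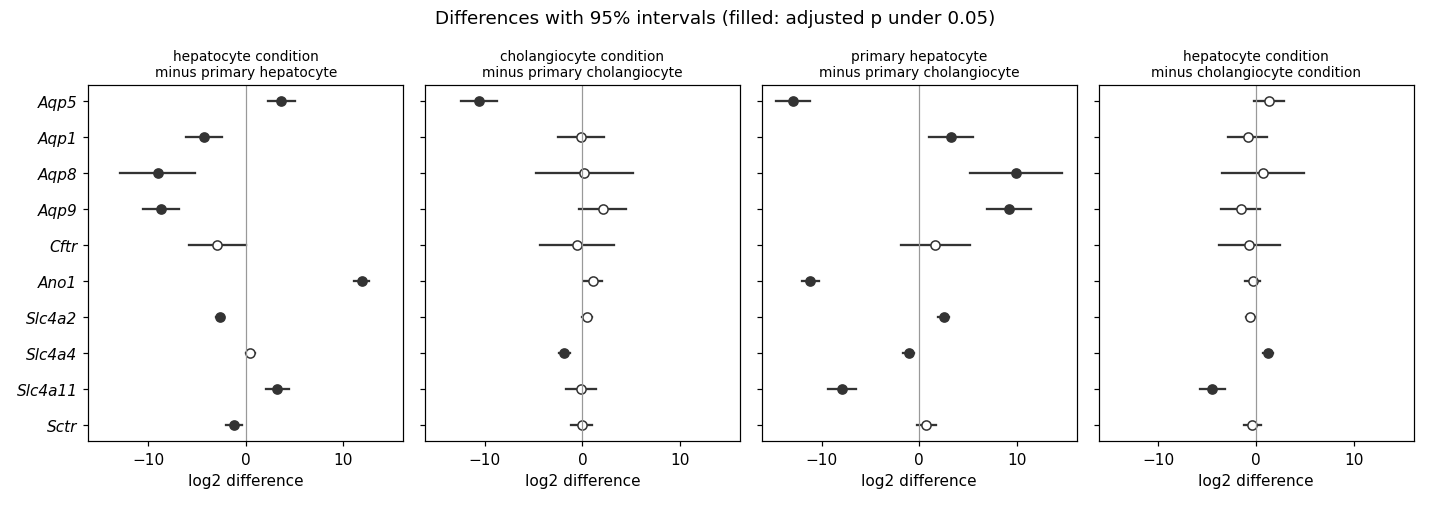
Log2 differences of the 10 genes in 4 comparisons, with 95% intervals from the limma fit; filled points passed at an adjusted p under 0.05. The cholangiocyte condition differed from primary cholangiocytes in Aqp5 (-10.62) and Slc4a4 (-1.87), where 19.6% of all genes passed. Between the hepatocyte condition and primary hepatocytes 8 members differed, where 59.7% of all genes passed.

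Sctr, the receptor by which secretin starts ductal secretion, was dim, and its 4 probes gave different pictures. The brightest probe read -2.35, -2.35, -3.62 and -2.92 in primary hepatocytes and -3.84 and -3.22 in primary cholangiocytes. The cultured arrays read -5.39 to -3.50 on it, and the lowest primary hepatocyte array lay within the range of undifferentiated cells. Primary hepatocytes were higher than undifferentiated cells by 1.44 ± 0.38 (adjusted p = 0.00409), and the hepatocyte condition was lower than primary hepatocytes by a difference of -1.21 ± 0.38 (adjusted p = 0.0130). Before scaling these differences were -0.16 and 0.16, in the other direction. Primary hepatocytes and primary cholangiocytes differed by 0.72 ± 0.46 (adjusted p = 0.210), which passed with normexp (0.93, 0.00315) and with the slide as a block (0.95, 0.00138) but turned negative with the mean of the 4 probes (-0.997, 0.119).

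The overlapping pair of Sctr probes, which share 24 bases, had their highest means in primary cholangiocytes but were at or near background. The dimmest was well above background on 1 of 2 primary cholangiocyte arrays and on 1 of the 15 others, so no size is given. Its partner was above background on both primary cholangiocyte arrays and on 2 of the 15 others. Between the primary types both were lower in hepatocytes, where neither was above background on any array (adjusted p = 0.0366 and 0.0492 over 32302 probes), while the brightest probe had its higher mean in hepatocytes. With the mean of the 4 probes the calls of the brightest probe were lost (adjusted p = 0.0813 and 0.301), and primary cholangiocytes exceeded undifferentiated cells by 1.86 (adjusted p = 0.0194). The 2 brighter probes are printed because the reading of Sctr turns on the choice of probe; they lie at chr1:121953023-121953082 and chr1:121943329-121943388, plus strand, in the array design.
Sctr A_55_P2066799, brightest: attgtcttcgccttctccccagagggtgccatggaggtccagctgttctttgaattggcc
Sctr A_55_P2183854: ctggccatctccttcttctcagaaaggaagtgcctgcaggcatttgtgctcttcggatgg

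**Figure D4:**
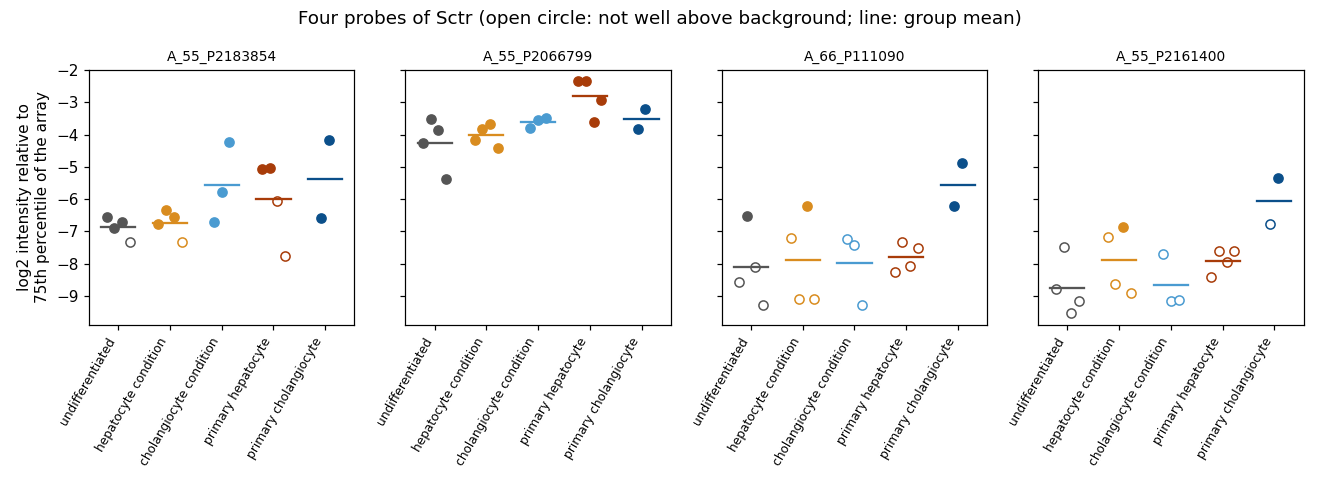
Each of the 4 Sctr probes on each of the 17 arrays (log2 intensity relative to the 75th percentile), by group; open points are not well above background. The brightest probe has its highest mean in primary hepatocytes (-2.81), and the 3 others in primary cholangiocytes (-5.37, -5.55 and -6.05).

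The difference between lineages was set against the same difference in the liver, as hepatocyte condition minus cholangiocyte condition, minus the primary pair. Of the 10 members 4 were higher and 4 lower in this difference of differences, with 15.5% of all genes higher and 22.2% lower (37.7% together). It was 14.27 ± 1.08 for Aqp5 and 10.80 ± 0.55 for Ano1, and -10.77 ± 1.40 for Aqp9 and -9.22 ± 2.93 for Aqp8. The values of Aqp5, Ano1, Aqp9 and Slc4a11 include a primary group with no array, or for Ano1 1 of 4, above background, so they are fitted values and not measured sizes. Slc4a4 was the member that passed in opposite directions in culture and liver, with 1.23 between the conditions and -1.09 between the primary types, a difference of 2.32 ± 0.34 (adjusted p = 1.19e-04). Slc4a11 kept its direction, -4.46 in culture and -7.89 in the liver (difference 3.43 ± 0.91, adjusted p = 0.00870), though this was lost under normexp correction (adjusted p = 0.463) and without primary cholangiocyte replicate 4 (2.73, adjusted p = 0.0595).

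Other genes of ductal secretion were described from 6 lists by role, with 104 genes of which 93 were measured above the filter. Against primary cholangiocytes, the cholangiocyte condition had 6 higher and 18 lower of the 93 (11.9% and 7.64% of all genes), with a median difference of -0.27, against 0.17 over all genes. Kcnq1, which with its partner Kcne3 lets potassium out at the basal side of secreting epithelia, was at 3.02 in primary cholangiocytes and above background on no cholangiocyte-condition array, so it was at least 1280-fold higher in primary cholangiocytes (adjusted p = 1.98e-04). Kcne3 was at 2.23 in primary cholangiocytes and at -5.05 in the cholangiocyte condition (difference -7.27 ± 1.17, adjusted p = 7.08e-04).

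Carbonic anhydrases make bicarbonate from carbon dioxide, and 4 of 13 were lower in the cholangiocyte condition than in primary cholangiocytes and 0 higher, beside 7.64% and 11.9% of all genes. Car9 differed by -7.97 ± 1.01 (adjusted p = 1.09e-04) and Car2, the main enzyme of the cytosol, by -3.43 ± 0.74 (adjusted p = 0.00538). On the list of other chloride channels and regulators, Ano9 was at least 424-fold higher in primary cholangiocytes (adjusted p = 2.80e-04), and Clcn2 differed by -3.61 ± 0.45 (adjusted p = 1.04e-04). Ano3, on the same list, was at least 11.6-fold higher in the cholangiocyte condition (adjusted p = 3.71e-05). The chloride transporter Slc26a9 differed by -3.57 ± 0.78 (adjusted p = 0.00583). In signalling 3 of 30 were higher and 6 lower (11.9% and 7.64% of all genes): the adenylate cyclase Adcy8 was at least 54.1-fold higher in primary cholangiocytes (adjusted p = 1.49e-04), and the cAMP sensor Rapgef3 and Pkhd1, the gene of recessive polycystic kidney disease, were higher in the cholangiocyte condition by 3.60 ± 0.59 and 3.32 ± 0.55 (adjusted p = 7.74e-04 and 9.39e-04).

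Against primary hepatocytes, the hepatocyte condition had 25 higher and 39 lower of the 93 (26% and 33.7% of all genes), with a median of -0.59 against -0.33 over all genes. Among those lower, Car3 was at least 53470-fold higher in primary hepatocytes (adjusted p = 2.79e-14), Car5a, the mitochondrial enzyme, differed by -12.67 ± 0.44 (adjusted p = 2.01e-11), and the sulphate carrier Slc26a1 by -8.10 ± 1.01 (adjusted p = 1e-05). Genes higher in the hepatocyte condition were Itpr3, the calcium release channel of duct cells (7.37 ± 0.29, adjusted p = 7.10e-11), and Slc4a3, an anion exchanger (at least 56.9-fold, adjusted p = 5.68e-10). Of 6 measured other aquaporins 4 were lower and 0 higher (33.7% and 26% of all genes), with Aqp11 at -3.65 ± 0.42 (adjusted p = 4.39e-06) and Aqp4 at -3.60 ± 0.31 (adjusted p = 2.56e-07).

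Between primary hepatocytes and primary cholangiocytes 27 of the 93 were higher and 30 lower, beside 28% and 21.6% of all genes. Of 14 cation transporters and potassium channels 2 were higher and 8 lower in hepatocytes, with a median of -1.93 against 0.35 over all genes. Itpr3 was lower in hepatocytes by a difference of -7.43 ± 0.35 (adjusted p = 9.29e-10), and Car12 and Car13 were at least 92.5-fold and at least 80.0-fold higher in cholangiocytes (adjusted p = 6.61e-06 and 6.92e-10).

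Within culture the hepatocyte condition had 9 higher and 10 lower of the 93 than undifferentiated cells (7.62% and 7.7% of all genes). Clcn2 was higher by 1.25 ± 0.35 (adjusted p = 0.0268), and Car2 differed by -2.53 ± 0.57 (adjusted p = 0.00863). In the cholangiocyte condition 1 of the 93 passed against undifferentiated cells, where 1.38% of all genes passed (0.785% higher, 0.597% lower). It was the VIP receptor Vipr2, at least 2.66-fold higher (adjusted p = 0.00675). Between the conditions 10 were higher and 10 lower in the hepatocyte condition (6.97% and 8.41% of all genes), among them Itpr1 (1.42 ± 0.24, adjusted p = 0.00154) and the anion exchanger Slc26a6 (-1.19 ± 0.26, adjusted p = 0.00634).

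**Figure D5:**
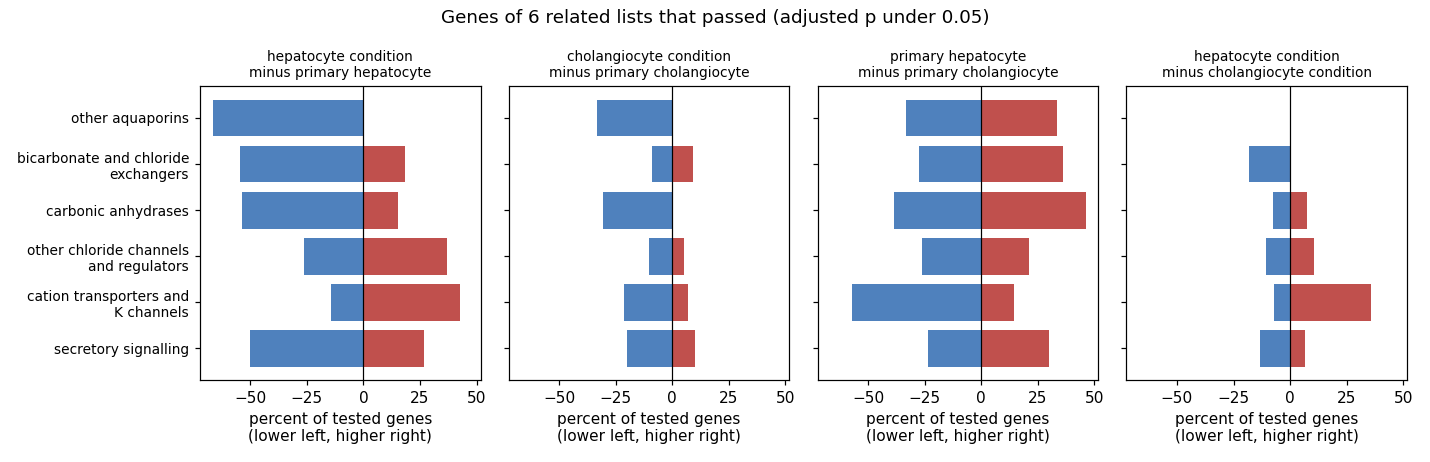
Percent of the measured genes of 6 lists that passed in each direction in 4 comparisons (bars to the right, higher in the first group; to the left, lower). Of 13 carbonic anhydrases and 6 other aquaporins, 0 were higher in the cholangiocyte condition than in primary cholangiocytes, beside 11.9% of all genes. Of 14 cation transporters and potassium channels, 5 were higher and 1 lower in the hepatocyte condition than in the cholangiocyte condition. Of all genes, 6.97% were higher and 8.41% lower there.

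The genes whose values over the 17 arrays were most like a member were named by Pearson r among 17201 genes above background on at least 9 arrays, a description over arrays that share the 5 groups. For Slc4a11 they were Mad2l1 (r = 0.958), Gm16372 (0.957) and Dbf4 (0.956), and for Aqp5 Ap1s3 (0.951), Bspry (0.949) and Gpr160 (0.947). Aqp1 was most like Amigo1 (0.929), Cbx7 (0.921) and Clec4g (0.898), the last a gene of sinusoidal endothelium and on the endothelial list above. Aqp8 was most like Slc6a13 (0.981), Xkr9 (0.981) and Apoe (0.967), and Slc4a2 like Derl2 (0.978), Aspscr1 (0.973) and Hsd3b7 (0.972). The likeness was weakest for Slc4a4, with Slc44a3 (0.877), Tmem139 (0.873) and Rab3d (0.833), and strongest for Ano1, with Gm6560 (0.998), Pkm (0.997) and Mfge8 (0.997). Cftr was most like Wdr45b (0.940), and Sctr like Otos (0.971). Aqp9 was above background on 8 arrays and was not compared.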

How the data were processed

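Total RNA was amplified with the WT-Ovation Pico system and labelled with Cy3, per the labels. Arrays were quantified in Feature Extraction, version 10.5.1.1 per the file headers and 9.53 per the submitters' processing notes. The deposited intensity is the program's background-subtracted signal, unscaled between arrays. The authors' deposited comparison table gives signed fold changes (a score) and a false discovery rate in percent; its test is not given in the sources used here, and it served as an alternative.

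Control spots and 135 probes with outlier spots were left out, and the log2 of the deposited intensity was centred on the 75th percentile of each array. Probes well above background on at least 2 of 17 arrays were kept (32302), and the brightest probe of a gene stood for it. Gene names were updated with RefSeq (GRCm38.p6). Group means were fitted with limma 3.58.1 in R 4.3.3 (lmFit, eBayes), all tests were two-sided and adjusted by Benjamini-Hochberg, and the fit was tested on simulated data. The precision is limited by the number of arrays. Alternatives changed background correction, scaling, probe filter, probe choice, slide, replicate number, array weights and the arrays used. The naming rule took all 10 members, up to 3 genes that passed per role list and direction, by size, of which the text gives a part, and the 3 genes most alike. The members and lists were chosen with earlier results of these data known. Same-numbered arrays deviated together in the 3 pairs of the cholangiocyte condition and undifferentiated cells (r = 0.385, 0.281 and 0.318), a pairing that comes from the data, not the labels; over all comparisons 5 of 23 pairs were over 0.1 (-0.23 to 0.52), and no other comparison with 3 or more pairs had all of them over it.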

Additional observations from a re-analysis of the deposited data

Results flagged for a closer look

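The difference between the hepatocyte and cholangiocyte conditions was not the difference between the primary cell types for 8 of the 10 genes, by the contrast of the 2 differences in the limma fit. Of all genes 37.7% passed in the same contrast (15.5% higher and 22.2% lower). The contrast was 14.27 for Aqp5 (adjusted p = 2.32e-07), 10.80 for Ano1 (5.44e-09), 3.43 for Slc4a11 (0.00870) and 2.32 for Slc4a4 (1.19e-04). It was -10.77 for Aqp9 (3.92e-05), -9.22 for Aqp8 (0.0230), -4.09 for Aqp1 (0.0337) and -3.09 for Slc4a2 (6.14e-06). Each is a comparison with 2 primary cholangiocyte arrays, and for Aqp5, Ano1, Aqp9 and Slc4a11 a primary group was largely or wholly at background. The Aqp1 value was -2.05 without primary cholangiocyte replicate 3 (adjusted p = 0.256). It also lost its call without hepatocyte-condition replicate 3 or 4 (0.0579 and 0.0585), cholangiocyte-condition replicate 3 (0.0847) or primary hepatocyte replicate 2 or 3 (0.0540 and 0.0522). The Aqp8 value lost its call without either primary cholangiocyte array (0.0591 and 0.0646) or cholangiocyte-condition replicate 2 (0.0573). With the replicate number as a block neither passed (Aqp1 0.0621, Aqp8 0.0800). The Slc4a11 value lost its call without primary cholangiocyte replicate 4 (2.73, 0.0595). No array stood apart from its group in any of the 30 groups of 4 arrays examined for the 10 genes.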

How the results depend on the processing

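Of 90 member differences under all alternatives, 1738 values in all, 62 changed side of the threshold and 0 reversed after having passed. Within slides 77 of 77 values had the direction of the passing difference, but they come from the same arrays. Where the groups do not overlap, that direction was fixed in advance. This was so for every passing difference between groups except Sctr between primary hepatocytes and undifferentiated cells, so the count is no separate support. Members that passed numbered 1 for primary cholangiocytes against undifferentiated cells with median scaling, array weights, the compared groups alone and the authors' deposited table. They numbered 2 for the hepatocyte condition and 1 for the cholangiocyte condition against undifferentiated cells with array weights, 2 for the former in the authors' table, and 1 for the cholangiocyte condition against primary cholangiocytes with the compared groups alone.

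Alternatives for the role lists on weights, slides and left-out arrays were added after seeing the data. Cholangiocyte condition against undifferentiated cells gave 2 genes with quantile normalization, the filter on every array and the slide as a random block, and 6 with array weights; primary cholangiocytes against undifferentiated cells gave 14 with array weights. Leaving out 1 array gave 11 to 19 genes (hepatocyte condition against undifferentiated), 1 to 2 (cholangiocyte condition), 15 to 27 (primary cholangiocytes) and 11 to 21 (between conditions). The share of all genes that passed under the same alternatives is not given here. These counts therefore do not show whether the lists moved apart from all genes.

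With the replicate number as a block no member passed between the cholangiocyte condition and undifferentiated cells, as without it; elsewhere, with the number as a block the difference of differences was -4.37 for Aqp1 (adjusted p = 0.0621) and -7.26 for Aqp8 (0.0800), and no other call of a member changed. Median scaling moved the median of all genes by -0.45 to 0.19, quantile by -0.45 to 0.35 and normexp by -0.54 to 0.52, and the share of higher calls against undifferentiated cells from 49.7% to 28.7% (hepatocyte condition) and from 56.8% to 37.3% (cholangiocyte condition; 43.3% with quantile) with median scaling. For primary cholangiocytes against undifferentiated cells it moved from 44.6% to 32.8% (median), and for primary hepatocytes from 58.6% to 45.0% (median), 47.0% (quantile) and 71.7% (normexp). Normexp moved it from 43.5% to 27.8% (hepatocyte condition against primary hepatocytes), from 56.4% to 74.9% (between primary types) and from 61.0% to 74.8% (cholangiocyte condition against primary cholangiocytes). The difference of differences moved from 41.1% to 52.4% (quantile) and 20.0% (normexp). Depth is limited by dim probes: values near background have no firm fold.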
